A study of Mus musculus with 18 samples.

Results

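The transcriptional coactivators YAP and TAZ, their 4 DNA-binding TEAD partners and 4 genes that they are known to activate were examined as a set of 10 genes across every group of an RNA-seq experiment on 10T1/2 cells, a multipotent mouse fibroblast line labelled as mesenchymal stem cells. The genes were taken by name from the 54532 genes of the count table. They were *Yap1* (YAP), *Wwtr1* (TAZ), *Tead1*, *Tead2*, *Tead3*, *Tead4*, *Ctgf* (also called *Ccn2*), *Cyr61* (also called *Ccn1*), *Ankrd1* and *Amotl2*, and all 10 were among the 14317 genes with enough counts to be tested. The experiment had 18 libraries, 3 in each of 6 groups. Unedited (WT) cells and a pair of lines labelled FOXS1 KO, clone 1 and clone 2, each grown from a single CRISPR-Cas9 edited cell, were sampled uninduced or stimulated. For stimulation, cells grown past confluence had 12 h of TGF-β1 at 1 nM followed by 48 h of DMII, an adipogenic cocktail of indomethacin, insulin, dexamethasone and 3-isobutyl-1-methylxanthine. Every stimulated library had received both TGF-β1 and DMII, so the share of either agent in a response cannot be told apart, and with 1 WT line and 2 clones a difference from WT cannot be separated from a difference between lines grown apart. In the study's methods, serum was withdrawn overnight before TGF-β1, and DMII was given in a medium other than the growth medium. Whether uninduced cells had the same steps is not stated, so the part of these steps in a response cannot be told apart either.

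In the Hippo pathway, the kinases MST and LATS phosphorylate YAP and TAZ, which then stay in the cytoplasm or are degraded. When the kinases are inactive, for example in spread cells on a stiff matrix, YAP and TAZ enter the nucleus, bind TEAD proteins and switch on genes for matricellular and cytoskeletal proteins. The pathway is known for its crosstalk with TGF-β signaling in fibroblasts, and *Ctgf* is a target of both. Phosphorylation and nuclear entry are protein events that mRNA levels do not show.

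Library totals ranged from 15576685 to 42005596 counts (median 20178953.5), and values are TMM-normalized CPM, the number of counts scaled to a common library size, with mean ± SD over a group's 3 libraries. A gene was called higher, lower, risen or fallen at a Benjamini-Hochberg adjusted p below 0.05 from edgeR's quasi-likelihood test over all 14317 genes, and a DEG also needed an absolute log2 fold change above 1. Nothing in the labels says that the 3 libraries of a group came from separate experiments, so the tests measure the spread between these libraries. *Foxs1* (ENSMUSG00000074676), the targeted gene, had 1.64 to 3.25 CPM in the 6 WT libraries and 21.1 to 56.8 CPM in the 12 libraries labelled FOXS1 KO. Its mRNA was thus higher in the libraries labelled KO, gene totals do not show the edit, and the direction of every comparison of clone with WT below rests on the genotype labels. Of the markers checked, 8 fibroblast genes summed to 40006 to 104378 CPM in every library and 8 genes of epithelial, endothelial, leukocyte and muscle cells to at most 6.84 CPM, with *Ptprc* at 0 counts. Single fibroblast markers differed between the lines. *Thy1* had 59.6 ± 1.4 CPM in uninduced WT, 184 ± 9.08 in clone 1 and 0.616 ± 0.258 in clone 2, and *Pdgfra* 517 ± 16.2, 171 ± 2.49 and 216 ± 7.08 CPM. Both were singled out after their values were seen. The sum of 6 adipocyte genes was 30.5 to 43 CPM in stimulated clone 1 and at most 4.64 CPM in the other groups, with *Lep* at 0 counts in all libraries. In stimulated clone 1 it came from *Fabp4* (20.4 ± 4.37 CPM), *Plin1* (7.78 ± 1.71) and *Cidec* (7.56 ± 1.03), and *Cfd* had 0 counts. *Adipoq* did not follow, with 0.207 ± 0.145 CPM there, 0.596 ± 0.558 in uninduced WT, 0 in stimulated WT and 0.954 ± 0.0434 in uninduced clone 2. In bulk RNA, fewer cells of a type and less RNA per cell cannot be told apart.

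Sequence upstream of the start site is shown for one coactivator and one target, because these carry the letters that TEAD proteins bind and their first exons do not reach into the window. RefSeq promoters (GRCm38.p6) were at hand for 7 of the 10 genes, with *Cyr61* listed as *Ccn1*, and not for *Ctgf*, *Tead1* or *Tead4*. The 250 bases before each start were searched for the TEAD motif GGAATG on both strands (CATTCC on the other), for the AP-1 motif TGANTCA and for the CArG box. In the sequences, written 5′ to 3′ on the strand of the gene, which is the minus strand for both, capitals mark the TEAD motif.
*Wwtr1*, chr3:57575911-57576160: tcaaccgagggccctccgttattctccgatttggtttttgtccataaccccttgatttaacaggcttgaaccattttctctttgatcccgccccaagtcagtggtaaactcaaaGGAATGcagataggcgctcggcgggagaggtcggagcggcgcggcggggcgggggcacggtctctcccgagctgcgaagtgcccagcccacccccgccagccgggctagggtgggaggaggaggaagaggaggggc
*Cyr61*, chr3:145649986-145650235: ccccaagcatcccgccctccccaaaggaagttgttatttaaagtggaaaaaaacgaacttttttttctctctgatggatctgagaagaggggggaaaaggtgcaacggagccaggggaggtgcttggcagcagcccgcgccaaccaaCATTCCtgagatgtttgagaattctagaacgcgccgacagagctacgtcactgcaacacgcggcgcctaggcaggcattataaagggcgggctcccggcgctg
The motif lay 136 bases before the *Wwtr1* start and 103 bases before the *Cyr61* start. It occurred in 6 of the 7 genes and in 8 of their 10 windows, against 12.6% of all 32851 promoters. It was not in the window of *Tead2* or in 1 of *Tead3*. The windows include 3 starts of *Tead3*, 2 of them overlapping, and 2 overlapping ones of *Wwtr1* that hold the same motif site. Neither other motif was in the window of any of the 7 genes, against 6.75% of all promoters for AP-1 and 1.47% for the CArG box. A match is a description of the letters, and binding was not measured.

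TGF-β1 + DMII raised the mRNA of the coactivators in all 3 genotypes, TAZ far more than YAP. *Wwtr1* (ENSMUSG00000027803, chromosome 3 of GRCm38 from 57455649 to 57575910, minus strand) had 125, 150 and 135 CPM in the uninduced WT libraries and 361, 347 and 369 CPM in the stimulated ones. In clone 1 it had 137, 135 and 135 CPM uninduced and 460, 471 and 454 CPM stimulated. Clone 2 had 153, 141 and 143 CPM uninduced and 493, 518 and 544 CPM stimulated. Every stimulated library lay above every uninduced one, and the stimulated groups were ordered WT, clone 1, clone 2 without overlap between WT and either clone. The log2 fold change was 1.39 in WT (SE 0.054, adjusted p = 1.67e-19), 1.77 (± 0.0544 SE, adjusted p = 6.74e-22) in clone 1 and 1.83 (± 0.0542 SE, adjusted p = 2.14e-22) in clone 2. The response was larger than that of WT by 0.37 on the log2 scale in clone 1 (95% interval 0.22 to 0.53, adjusted p = 0.000228) and by 0.43 in clone 2 (0.28 to 0.59, adjusted p = 3.19e-05). Uninduced clones were close to WT, with log2 fold changes of -0.01 (95% interval -0.12 to 0.10) in clone 1 and 0.10 (-0.01 to 0.21) in clone 2.

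*Yap1* (ENSMUSG00000053110, chromosome 9 from 7931999 to 8004596, minus strand) moved little and alike in the 3 genotypes. Its level ran from 133 to 142 CPM in uninduced WT libraries and from 160 to 171 CPM in stimulated ones. The ranges were 108 to 115 CPM and 129 to 139 CPM in clone 1, and 117 to 125 CPM and 139 to 151 CPM in clone 2. The clones thus lay below WT in both states, with no overlap. The log2 response was 0.27 in WT, 0.26 in clone 1 and 0.24 in clone 2, and the difference from WT was -0.02 (95% interval -0.16 to 0.13) in clone 1 and -0.03 (-0.17 to 0.12) in clone 2. Compared with WT, *Yap1* fell by 0.28 in uninduced clone 1 (adjusted p = 2.32e-05), by 0.30 in stimulated clone 1 (adjusted p = 6.01e-06), by 0.17 in uninduced clone 2 (adjusted p = 0.0047, but 0.0822 with no filter on low counts) and by 0.20 in stimulated clone 2 (adjusted p = 0.00113), all on the log2 scale. Per kb of gene length, the level of *Wwtr1* was 1.94 ± 0.118 times that of *Yap1* in uninduced WT libraries and 4.22 ± 0.126 times in stimulated ones (SD, n = 3). The ratio was 2.34 ± 0.0544 and 6.68 ± 0.235 in clone 1 and 2.33 ± 0.043 and 6.99 ± 0.242 in clone 2. In both states the ratios of the 3 libraries of either clone lay above those of WT. An exact two-sided permutation test of 3 against 3 cannot give a p below 0.1, the value obtained for clone 1 and for clone 2 in either state.

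**Figure D1:**
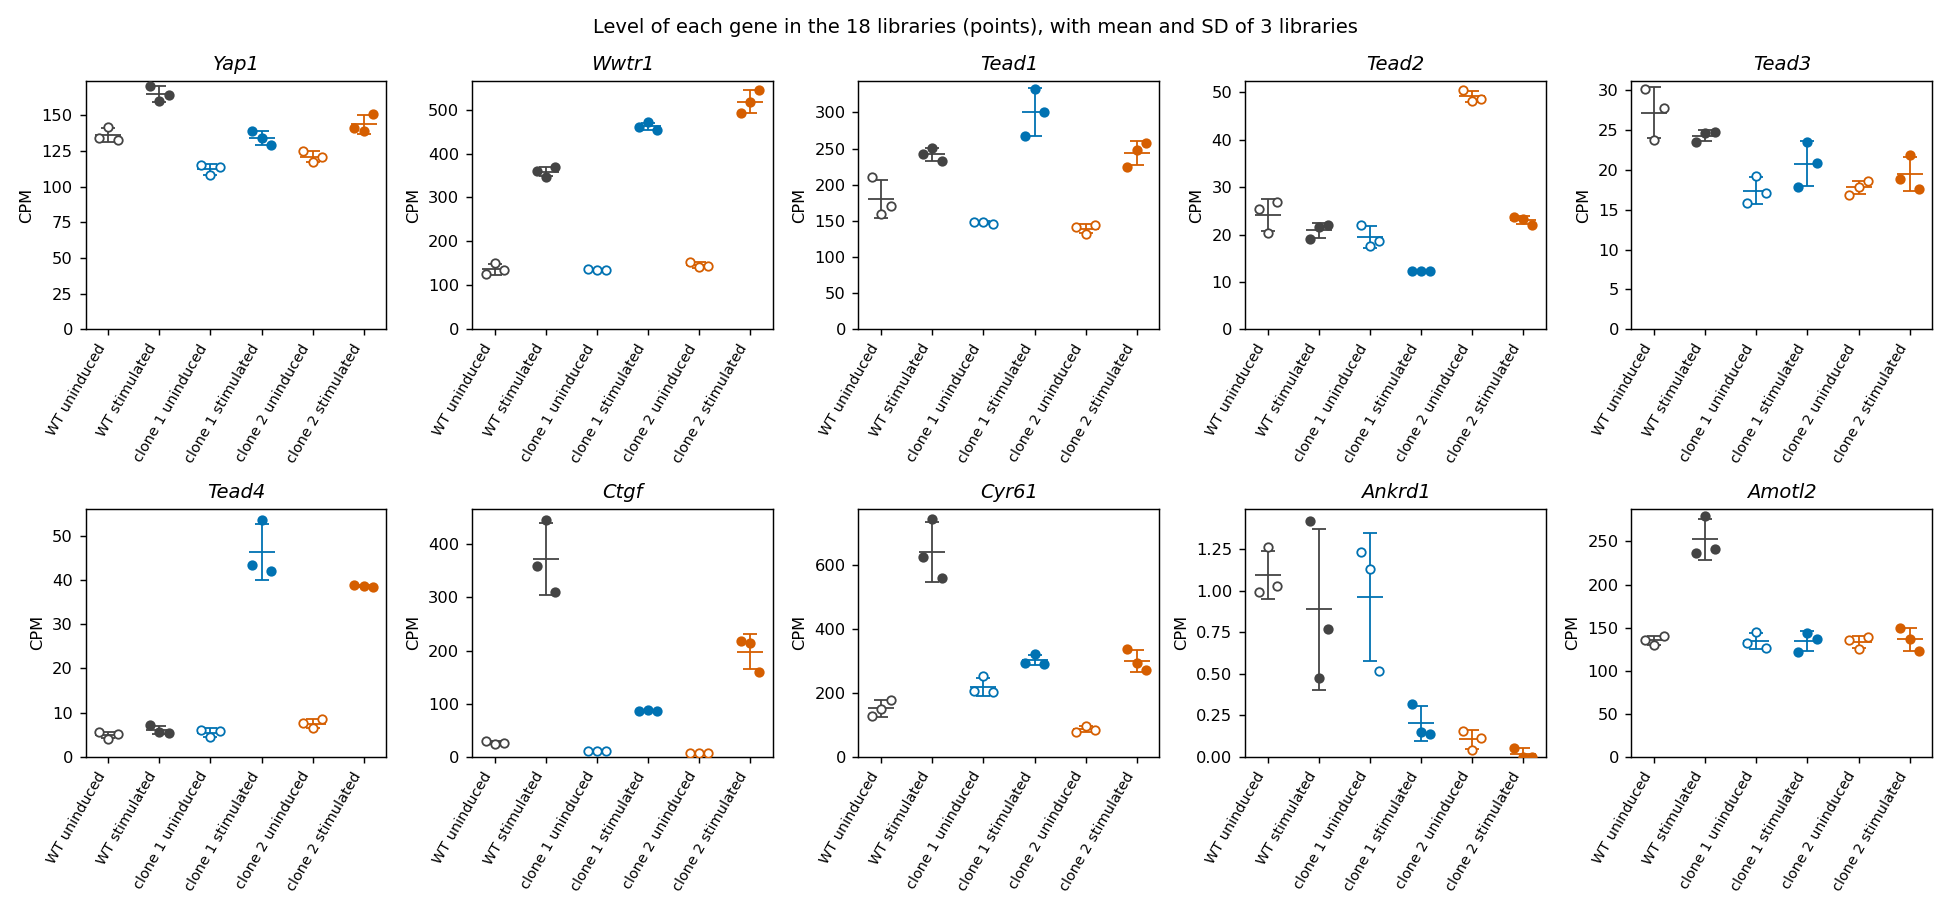
CPM of each of the 10 genes (y axis, from 0) in the 6 groups (x axis). Points are the 3 libraries of a group, open for uninduced and filled for TGF-β1 + DMII, with the mean and SD as bars, in grey for WT, blue for clone 1 and orange for clone 2. *Amotl2* reached 236 CPM or more in stimulated WT libraries and at most 149 CPM elsewhere, whereas *Tead4* reached 38.5 CPM or more in the stimulated clones and at most 8.52 CPM elsewhere.

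Among the TEADs, the factors through which YAP and TAZ reach DNA, *Tead4* differed most between the genotypes. *Tead4* (ENSMUSG00000030353, chromosome 6 from 128224288 to 128300823, minus strand) had 5.53, 4.14 and 5.15 CPM in uninduced WT libraries and 7.14, 5.53 and 5.46 CPM in stimulated ones. In clone 1 it had 6.15, 4.4 and 5.95 CPM uninduced and 43.3, 53.6 and 42 CPM stimulated. Clone 2 had 7.63, 6.47 and 8.52 CPM uninduced and 38.8, 38.6 and 38.5 CPM stimulated. Both stimulated WT and uninduced WT libraries had at most 7.14 CPM and overlapped, while the 6 stimulated clone libraries lay above all others. The log2 response was 0.29 in WT (95% interval -0.03 to 0.60, adjusted p = 0.113), 3.07 (± 0.136 SE, adjusted p = 5.09e-18) in clone 1 and 2.36 (± 0.129 SE, adjusted p = 7.56e-16) in clone 2. It exceeded that of WT by 2.79 ± 0.208 (SE) in clone 1 (adjusted p = 3.9e-12) and by 2.08 ± 0.202 in clone 2 (adjusted p = 1.48e-09). In stimulated cells *Tead4* was 7.7-fold higher in clone 1 and 6.41-fold higher in clone 2 than in WT. Before stimulation it was higher in clone 2 than in WT, by a log2 fold change of 0.60 (adjusted p = 0.00105), and the value for clone 1 was 0.16 (95% interval -0.17 to 0.48).

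*Tead1* (ENSMUSG00000055320, chromosome 7 from 112679318 to 112906807, plus strand) was the most abundant TEAD or shared the first place in every group. It rose from 160 to 210 CPM in uninduced WT libraries to 233 to 251 CPM in stimulated ones, from 145 to 149 CPM to 267 to 333 CPM in clone 1, and from 132 to 144 CPM to 225 to 257 CPM in clone 2. The log2 response was 0.43 in WT (adjusted p = 0.000191), 1.03 in clone 1 (adjusted p = 3.14e-09) and 0.81 in clone 2 (adjusted p = 1.03e-07), larger than in WT by 0.60 in clone 1 (adjusted p = 0.00064) and by 0.38 in clone 2 (adjusted p = 0.0215). The last was lost without stimulated WT replicate 3 (adjusted p = 0.0539), uninduced clone 2 replicate 2 (0.0582) or stimulated clone 2 replicate 3 (0.0601). Uninduced *Tead1* was below WT in both clones (log2 fold changes -0.29 and -0.37, adjusted p = 0.00869 and 0.00107). After stimulation it was above WT in clone 1 (0.31, adjusted p = 0.0035), and the value for clone 2 was 0.00 (95% interval -0.17 to 0.18).

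*Tead2* (ENSMUSG00000030796, chromosome 7 from 45215753 to 45233644, plus strand) went the other way. In clone 2 it had 50.5, 48.3 and 48.7 CPM uninduced and 23.7, 23.3 and 22.1 CPM stimulated. Clone 1 had 22, 17.6 and 18.6 CPM uninduced and 12.4, 12.2 and 12.3 CPM stimulated. The WT libraries had 25.3, 20.4 and 26.8 CPM uninduced and 19, 21.6 and 22 CPM stimulated. Uninduced clone 2 stood above every other group and stimulated clone 1 below every other group. *Tead2* fell by 0.66 in clone 1 (adjusted p = 3.07e-06) and by 1.10 in clone 2 (adjusted p = 4.23e-11) on the log2 scale, whereas the WT value was -0.21 (95% interval -0.41 to -0.01, adjusted p = 0.0629). The fall exceeded that of WT, with a difference in response of -0.45 in clone 1 (adjusted p = 0.0159, but 0.0518 without uninduced WT replicate 2 and 0.0744 without uninduced clone 1 replicate 1) and -0.88 in clone 2 (adjusted p = 6.28e-06). Compared with WT, the log2 fold change of clone 2 was 1.02 uninduced (adjusted p = 1.72e-10) and 0.14 stimulated (95% interval -0.07 to 0.34). That of clone 1 was -0.32 uninduced (adjusted p = 0.00791, but 0.0746 without uninduced WT replicate 3 and 0.0595 without uninduced clone 1 replicate 2) and -0.77 stimulated (adjusted p = 1.73e-07).

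*Tead3* (ENSMUSG00000002249, chromosome 17 from 28331671 to 28350817, minus strand) ranged only from 15.8 to 30.1 CPM over the 18 libraries. It was lower than in WT in uninduced clone 1 (log2 fold change -0.65, adjusted p = 1.05e-05) and in uninduced clone 2 (-0.62, adjusted p = 1.57e-05). After stimulation the values were -0.22 (adjusted p = 0.0808) and -0.32 (adjusted p = 0.0146, but 0.0528 without stimulated clone 2 replicate 1 and 0.0938 without replicate 3). Its log2 response was -0.16 in WT (95% interval -0.38 to 0.05), 0.26 in clone 1 (adjusted p = 0.0439) and 0.13 in clone 2 (-0.09 to 0.36). The clone 1 value lost its call without uninduced clone 1 replicate 1 (adjusted p = 0.189) or 3 (0.103) and without stimulated clone 1 replicate 2 (0.235) or 3 (0.0546). The difference in response from WT was 0.43 in clone 1 (adjusted p = 0.0318), a call lost in 7 of 12 fits with 1 library left out, and 0.30 in clone 2 (adjusted p = 0.151).

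Summed per kb of gene length, TEAD transcripts stood at 23.7 ± 3 CPM per kb in uninduced WT cells and 27.5 ± 0.647 in stimulated ones (SD, n = 3). The sum went from 19 ± 0.541 to 40.7 ± 4.38 CPM per kb in clone 1 and from 25.2 ± 0.868 to 36.4 ± 1.09 in clone 2. *Tead4* made up 5.78% ± 0.253 of this sum in uninduced and 6.11% ± 1 in stimulated WT cells. In the clones its share was 8.02% ± 1.28 and 8.28% ± 0.869 uninduced, then 31.6% ± 1.82 in stimulated clone 1 and 29.5% ± 1 in stimulated clone 2. The size of these shares depends on the division by gene length. In CPM without it, stimulated clone 1 had 46.3 for *Tead4* beside 301 for *Tead1*. Stimulated clone 2 had 38.6 beside 243, and stimulated WT 6.04 beside 242. *Tead2* held 40.7% ± 1.26 of the sum in uninduced clone 2, about the 40.5% ± 0.475 of *Tead1* there, and 6.36% ± 0.701 in stimulated clone 1. The share of *Tead4* in stimulated clones did not overlap that of stimulated WT cells, and the exact permutation test gave the smallest p that 3 against 3 allow (0.1).

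**Figure D2:**
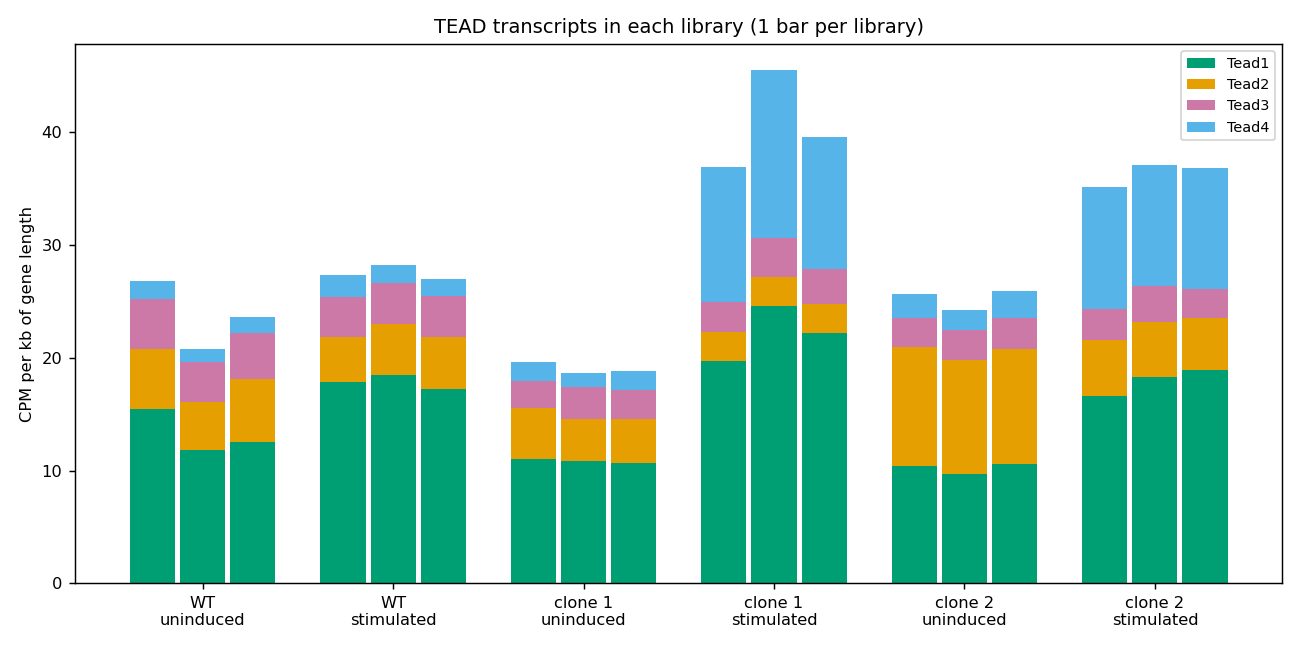
TEAD transcripts per library, in CPM per kb of gene length (y axis), 1 bar per library and 3 per group (x axis), stacked by gene. The *Tead4* segment is 28.9% to 32.7% of the bar in the stimulated clones and at most 9.15% in the other groups, and the *Tead2* segment is tallest in uninduced clone 2.

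The 4 target genes responded unlike each other. *Ctgf* (ENSMUSG00000019997, chromosome 10 from 24595442 to 24598683, plus strand) encodes a secreted matricellular protein of fibrosis and is the best known TEAD target. It had 30.2, 24.3 and 26.4 CPM in uninduced WT libraries and 359, 445 and 311 CPM in stimulated ones. Clone 1 had 11.6, 11.9 and 10.6 CPM uninduced and 86.8, 88.5 and 87.1 CPM stimulated. Clone 2 had 8.28, 7.4 and 7.13 CPM uninduced and 219, 214 and 160 CPM stimulated. In both states all clone libraries lay below all WT libraries. The gene rose in every genotype, 13.8-fold in WT (log2 fold change 3.79, SE 0.146, adjusted p = 6.55e-12), 7.7-fold in clone 1 (2.94, SE 0.161, adjusted p = 5.66e-10) and 25.5-fold in clone 2 (4.67, SE 0.164, adjusted p = 2.31e-12). Against WT, the response was smaller in clone 1 by a log2 difference of -0.84 (adjusted p = 0.0081) and larger in clone 2 by 0.89 (adjusted p = 0.00548). Without stimulated WT replicate 2 or stimulated clone 2 replicate 3 the clone 2 difference was 1.04 and 1.02, past the fold threshold. The level was lower than in WT in uninduced clone 1 (log2 fold change -1.24, adjusted p = 2.46e-05), uninduced clone 2 (-1.80, adjusted p = 5.23e-07), stimulated clone 1 (-2.09, adjusted p = 2.53e-09) and stimulated clone 2 (-0.91, adjusted p = 1.93e-05). The last is under the fold threshold of a DEG, and without stimulated WT replicate 3 it was -1.03. In the annotation, 23.2% of the exonic bases of *Ctgf* lie under an antisense gene, *Gm15270*, which had 0 to 19 counts per library.

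*Cyr61* (ENSMUSG00000028195, chromosome 3 from 145646976 to 145649981, minus strand), a close relative of *Ctgf* that encodes a secreted integrin ligand, had the highest level per kb of the 10 genes in all 6 groups. Uninduced WT libraries had 128, 149 and 179 CPM and stimulated ones 626, 744 and 559 CPM. Clone 1 had 205, 253 and 203 CPM uninduced and 295, 322 and 292 CPM stimulated. Clone 2 had 78.9, 97.6 and 83.2 CPM uninduced and 339, 295 and 271 CPM stimulated. The stimulated clones overlapped each other and lay below all stimulated WT libraries, but they had started from different levels, clone 1 above WT and clone 2 below it. The log2 response was 2.08 in WT (SE 0.149, adjusted p = 3.04e-08), 0.46 (± 0.144 SE, adjusted p = 0.0159) in clone 1 and 1.80 (± 0.15 SE, adjusted p = 1.89e-07) in clone 2. The rise in clone 1 was lost without uninduced clone 1 replicate 1 (adjusted p = 0.0608) or 3 (0.0634) or stimulated clone 1 replicate 2 (0.0505). It was smaller than in WT in clone 1 (difference -1.62, adjusted p = 3.33e-05), and the difference for clone 2 was -0.27 (95% interval -0.72 to 0.17, adjusted p = 0.369). Stimulated cells of both clones were below WT, by log2 fold changes of -1.08 (adjusted p = 1.87e-05) and -1.09 (adjusted p = 2e-05). Without stimulated WT replicate 2 these were -0.96 and -0.97, still past the p threshold and no longer DEGs. Uninduced, the value was 0.53 in clone 1 (adjusted p = 0.00742) and -0.82 in clone 2 (adjusted p = 0.000405).

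*Amotl2* (ENSMUSG00000032531, chromosome 9 from 102716672 to 102733418, plus strand) encodes a motin, a scaffold that binds YAP and promotes LATS activity, and is itself a YAP target. It had 136, 130 and 140 CPM in uninduced WT libraries and 236, 280 and 241 CPM in stimulated ones. In clone 1 the values were 132, 145 and 126 CPM uninduced and 122, 144 and 137 CPM stimulated. In clone 2 they were 136, 125 and 139 CPM uninduced and 149, 137 and 123 CPM stimulated. Only the stimulated WT libraries stood apart, and the other 5 groups overlapped. The gene rose in WT, 1.87-fold (log2 fold change 0.90, SE 0.0748, adjusted p = 2.09e-10), and the values were 0.00 in clone 1 (95% interval -0.16 to 0.15) and 0.03 in clone 2 (-0.13 to 0.19). Relative to WT, the clone 1 response thus differed by -0.90 (SE 0.106, adjusted p = 2.85e-07), that of clone 2 by -0.87 (SE 0.106, adjusted p = 5.51e-07). Before stimulation the clones were at the WT level to within these libraries' precision, at -0.01 (95% interval -0.16 to 0.15) and -0.02 (-0.18 to 0.13). After stimulation they were lower, at -0.91 (adjusted p = 1.76e-10) and -0.89 (adjusted p = 3.41e-10).

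*Ankrd1* (ENSMUSG00000024803, chromosome 19 from 36111965 to 36119844, minus strand) encodes a nuclear ankyrin repeat protein of muscle and was barely detected, so its values rest on few reads. The uninduced WT libraries held 17, 24 and 27 counts and the stimulated ones 29, 11 and 17 counts. Clone 1 held 24, 21 and 10 counts uninduced and 6, 4 and 3 counts stimulated. Clone 2 held 7, 1 and 2 counts uninduced and 1, 0 and 0 counts stimulated. Levels were thus 1.09 ± 0.145 and 0.887 ± 0.483 CPM in WT, 0.958 ± 0.385 and 0.201 ± 0.103 CPM in clone 1, and 0.105 ± 0.0567 and 0.0187 ± 0.0323 CPM in clone 2 (SD, n = 3, uninduced then stimulated). WT cells overlapped between the states, whereas both stimulated clones lay below stimulated WT cells. The ratio of clone to WT over summed counts was 0.221 in stimulated clone 1 (95% exact binomial interval 0.111 to 0.409), 0.0232 in stimulated clone 2 (0.000577 to 0.134) and 0.109 in uninduced clone 2 (0.0498 to 0.212), with intervals that cover counting error only. The edgeR test gave adjusted p = 0.0043, 3.98e-05 and 0.000126 for these comparisons. Without stimulated WT replicate 1 the first had adjusted p = 0.0555. The difference in response between clone and WT did not pass the threshold in either clone (adjusted p = 0.0708 and 0.317), and for clone 1 it was 0.0491 without uninduced clone 1 replicate 3.

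**Figure D3:**
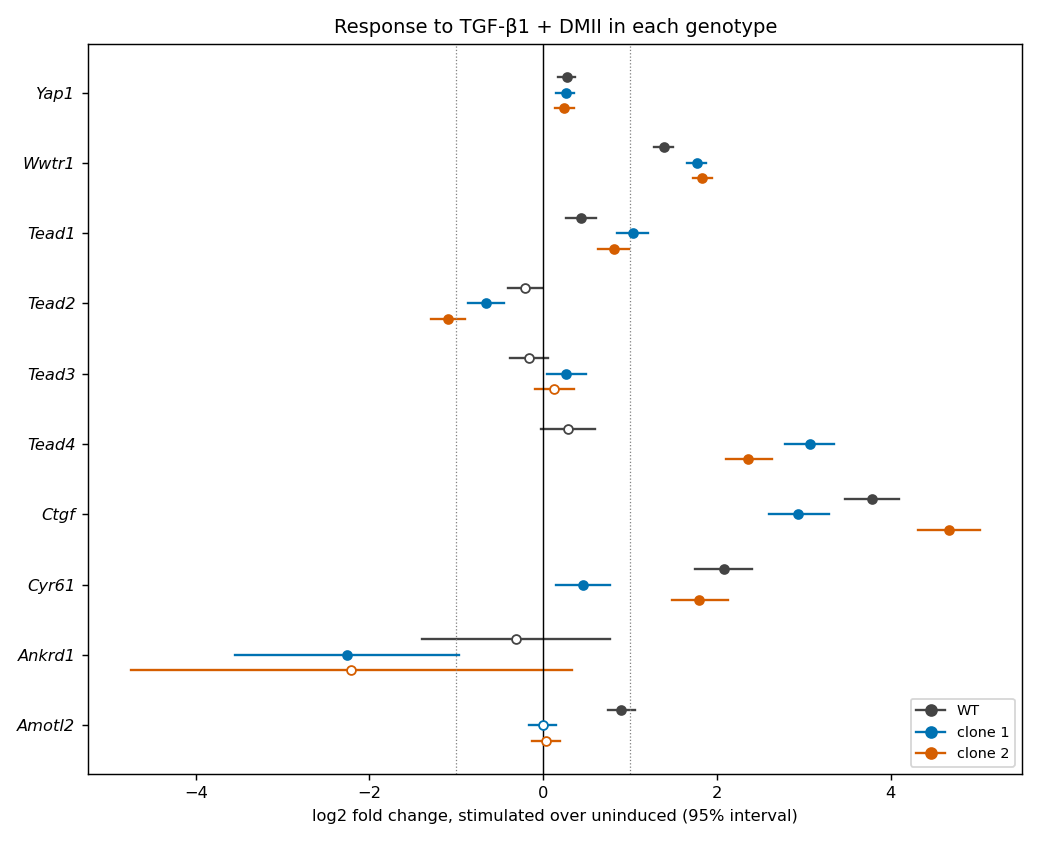
Response of each gene to TGF-β1 + DMII as log2 fold change of stimulated over uninduced cells (x axis) with its 95% interval, for WT (grey), clone 1 (blue) and clone 2 (orange). Filled points have an adjusted p below 0.05 and dotted lines mark the fold threshold of a DEG. WT stands apart from both clones for *Amotl2* (0.90 against 0.00 and 0.03) and *Tead4* (0.29 against 3.07 and 2.36), while *Yap1* has the same small rise in the 3 genotypes.

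Counted together, 3 of the 10 genes were DEGs in the WT response (*Wwtr1*, *Ctgf* and *Cyr61*, all higher), against 19.9% of all tested genes in either direction and 6.25% higher. In clone 1, 5 were DEGs (*Wwtr1*, *Tead1*, *Tead4* and *Ctgf* higher and *Ankrd1* lower, against 16.7%), of which *Tead1* fell under the fold threshold, at 0.96, without stimulated clone 1 replicate 2. In clone 2, 5 were DEGs (*Wwtr1*, *Tead4*, *Ctgf* and *Cyr61* higher and *Tead2* lower, against 17.7%). The median log2 response of the 10 genes was 0.36 in WT, 0.36 in clone 1 and 0.53 in clone 2, beside -0.04, -0.02 and -0.02 over all tested genes. The difference in response was past both DEG thresholds for *Tead4* and *Cyr61* in clone 1, against 8.81% of all tested genes, and for *Tead4* in clone 2, against 7.85%. It passed the p threshold alone for 8 of the 10 genes in clone 1, against 31.6% of all tested genes, and for 6 in clone 2, against 31.2%. Among the genes called in both clones, the difference was positive in both for *Tead4*, *Tead1* and *Wwtr1*, negative in both for *Tead2* and *Amotl2*, and of opposite sign for *Ctgf*. Both clones are compared with the same 6 WT libraries, so these values are not independent of each other.

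Compared with WT, 1 gene was a DEG in uninduced clone 1 (*Ctgf*, lower, against 15.1% of all tested genes) and 3 in uninduced clone 2 (*Tead2* higher, *Ctgf* and *Ankrd1* lower, against 15.1%). Without uninduced WT replicate 2, *Tead2* was at 0.92 and not a DEG. In stimulated cells 4 genes were DEGs in clone 1 (*Tead4* higher, *Ctgf*, *Cyr61* and *Ankrd1* lower, against 19%, of which 9.42% higher and 9.6% lower) and 3 in clone 2 (*Tead4* higher, *Cyr61* and *Ankrd1* lower, against 16.9%, of which 7.95% higher and 8.94% lower). At the p threshold alone, 9 of the 10 genes differed from WT in stimulated clone 1, against 58.9% of all tested genes, and 8 in stimulated clone 2, against 56%. All 4 targets were lower than WT in stimulated cells of both clones, as were 30.5% of all tested genes in clone 1 and 28.3% in clone 2, while *Wwtr1* and *Tead4* were higher and *Yap1* was lower. Of these targets, *Ankrd1* passed the count filter only through WT and uninduced clone 1 libraries. In the stimulated clones and in uninduced clone 2 it could hardly be called other than lower than WT.

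**Figure D4:**
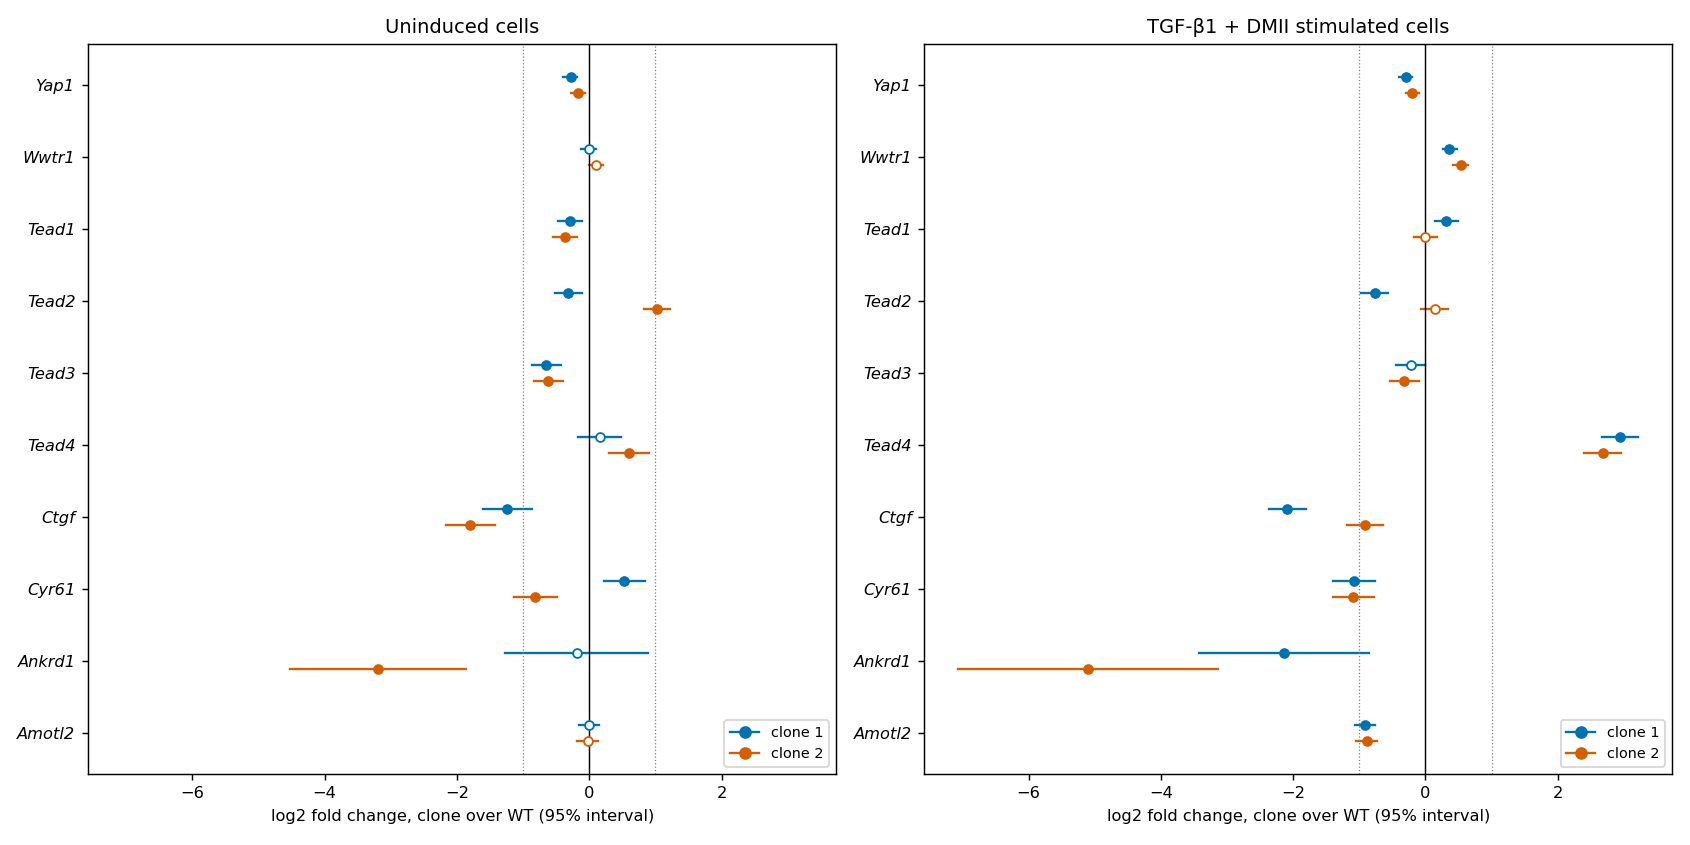
Log2 fold change of clone 1 (blue) and clone 2 (orange) over WT with its 95% interval (x axis) for each gene, in uninduced cells (left) and stimulated cells (right). Filled points have an adjusted p below 0.05 and dotted lines mark the fold threshold of a DEG. In stimulated cells the 4 targets lie left of 0 in both clones and *Tead4* lies at 2.94 and 2.68. The values of *Ankrd1* rest on few counts.

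Between the clones, 3 genes were DEGs uninduced (8.67% of all tested genes were DEGs) and 2 stimulated (9.98%). Uninduced clone 1 had less *Tead2* than clone 2 (log2 fold change -1.34, adjusted p = 1.65e-12), more *Cyr61* (1.35, adjusted p = 6.46e-06) and more *Ankrd1* (55 against 10 summed counts, adjusted p = 0.000413). After stimulation clone 1 had less *Ctgf* (-1.17, adjusted p = 2.99e-06), and *Ankrd1* had 13 against 1 summed counts (adjusted p = 0.0396), a call lost at adjusted p = 0.123 without stimulated clone 1 replicate 1, 0.117 without stimulated clone 2 replicate 2 and 0.126 without stimulated clone 2 replicate 3. Stimulated *Cyr61* (0.01, 95% interval -0.30 to 0.32) and *Amotl2* (-0.02, -0.18 to 0.14) were close between the clones.

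By level per kb, uninduced WT cells held *Cyr61* (75.3 CPM per kb), *Wwtr1* (28.6), *Amotl2* (21.5), *Yap1* (14.7), *Tead1* (13.2), *Ctgf* (9.42), *Tead2* (5.05), *Tead3* (4.05), *Tead4* (1.37) and *Ankrd1* (0.619) in that order. *Yap1* and *Tead1* overlapped there, as did *Tead2* and *Tead3*, and the other neighbours did not. After stimulation *Ctgf* was second in WT cells (130 CPM per kb) and came after *Wwtr1* in clone 1 (30.6) and clone 2 (69). *Tead4* was next to last in WT cells and seventh in stimulated clone 1 (12.9 CPM per kb), where it overlapped *Yap1*.

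The Hippo cascade and its regulators formed a list of 23 genes, all tested. In stimulated clone 1, 4 were higher and 11 lower than WT, against 58.9% of all tested genes called in either direction, with 1 and 2 of these DEGs, against 19%. The median log2 fold change was -0.17 beside -0.02 for all tested genes. In stimulated clone 2, 7 were higher and 6 lower, against 56%, with 0 and 1 DEGs, against 16.9%, and a median of 0.00 beside -0.01. In uninduced cells 1 was a higher and 1 a lower DEG in clone 1 (*Wwc1*, 30.5 ± 1.66 against 15.1 ± 1.42 CPM in WT, and *Amot*, 19.8 ± 1.7 against 47.5 ± 4.3 CPM), and 1 was a lower DEG in clone 2, against 15.1% of all tested genes in each. *Stk3* and *Stk4*, which encode the MST kinases, were at log2 fold changes of 0.08 and 0.05 in stimulated clone 1 and 0.10 and -0.07 in clone 2, none past the test, and *Lats2* was at -0.09 and -0.10, also not past it. *Lats1* was lower than WT in clone 1 (-0.19, adjusted p = 0.0113) and higher in clone 2 (0.21, adjusted p = 0.00498). Of the upstream kinases, *Taok3* was lower in both clones (-0.85 and -0.80, adjusted p = 4.91e-07 and 2.27e-06), and *Map4k4* was higher in clone 2 (0.50, adjusted p = 4.19e-10) and at -0.07 in clone 1 (adjusted p = 0.243). *Ajuba*, a LIM protein that inhibits LATS, was lower in both clones (folds over WT of 0.25, adjusted p = 8.82e-18, and 0.303, adjusted p = 4.01e-16). It had risen in WT from 37.3 ± 6.33 to 95.2 ± 2.6 CPM, fell from 35.7 ± 3.01 to 23.8 ± 0.757 CPM in clone 1 and had 26.9 ± 1.02 and 28.8 ± 2.54 CPM in clone 2. *Wwc1* (KIBRA), an activator of the cascade, fell from 15.1 ± 1.42 to 3.01 ± 0.0672 CPM in WT. Its level also went down in the clones, from 30.5 ± 1.66 to 16.2 ± 2 CPM in clone 1 and from 18.8 ± 0.946 to 5.04 ± 0.321 CPM in clone 2. After stimulation it was higher than WT in clone 1 (adjusted p = 2.19e-16) and in clone 2 (adjusted p = 7.18e-05). *Sav1*, the scaffold of the MST kinases, fell in WT (log2 fold change -0.49, adjusted p = 1.35e-09) and rose in clone 1 (0.55, adjusted p = 1.29e-10) and clone 2 (0.36, adjusted p = 4e-07). *Amot*, a relative of *Amotl2*, was lower in clone 1 in both states (13.7 ± 1.48 against 30 ± 0.914 CPM stimulated, adjusted p = 7e-12), with 30.6 ± 0.967 CPM in stimulated clone 2.

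Of the 4 VGLL cofactors, which compete with YAP and TAZ for TEADs, 2 had enough counts to test. *Vgll3* rose in WT from 73.9 ± 5.72 to 107 ± 4.14 CPM (adjusted p = 2.26e-09). It fell from 104 ± 2.17 to 42.5 ± 0.943 CPM in clone 1 (adjusted p = 1.31e-17) and from 140 ± 4.68 to 79.7 ± 4.25 CPM in clone 2 (adjusted p = 3e-13). The difference in response was -1.82 in clone 1 (adjusted p = 3.79e-17) and -1.35 in clone 2 (adjusted p = 4.16e-14). *Vgll4* fell in the 3 genotypes, with log2 responses of -0.42, -0.37 and -0.21.

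A list of 18 other genes commonly given as YAP/TAZ targets, all tested, split in both directions. *Lats2* and *Ptpn14* stand in this list and in the Hippo list. In stimulated clone 1, 7 were higher and 8 lower than WT, against 58.9% of all tested genes called, with 1 and 4 DEGs, against 9.42% and 9.6%. The median log2 fold change was 0.01 beside -0.02 for all tested genes. In stimulated clone 2, 10 were higher and 6 lower, against 56%, with 3 and 5 DEGs, against 7.95% and 8.94%, and a median of 0.23 beside -0.01. Before stimulation 1 was a higher and 3 were lower DEGs in each clone, where 15.1% of all tested genes were DEGs in either direction. *Nuak2*, a kinase of the AMPK family, was lower in both clones after stimulation. It rose in WT from 7.04 ± 1.12 to 44.8 ± 1.19 CPM, had 8.69 ± 0.933 and 10.5 ± 0.2 CPM in clone 1 and rose from 6.68 ± 0.783 to 15.2 ± 0.363 CPM in clone 2. Its response differed from that of WT by -2.41 (adjusted p = 5.98e-13) in clone 1 and -1.51 (adjusted p = 1.3e-08) in clone 2 on the log2 scale. *Igfbp3*, a binding protein of insulin-like growth factors, and *Fjx1*, a secreted relative of a fly planar polarity kinase, were lower than WT in both clones and both states. *Nt5e*, the ecto-5′-nucleotidase CD73, had 51 counts over the stimulated WT libraries, 3 over those of clone 1 and 0 over those of clone 2. It passed the count filter through WT alone, so it could be called only lower in the clones. The transcription factor gene *Foxf2* was higher in both stimulated clones (log2 fold changes 1.43 and 0.81, adjusted p = 2.7e-16 and 2.11e-10), as was *Asap1*, which encodes an ARF GTPase activator (0.99 and 1.41, adjusted p = 3.87e-12 and 2.22e-15). *Asap1* already differed before stimulation, with 174 ± 17.6 CPM in clone 1 and 223 ± 7.81 in clone 2, against 83.2 ± 3.64 in WT. The stress gene *Gadd45a* was higher in clone 2 (1.67, adjusted p = 5.79e-17), and the value in clone 1 was 0.12 (adjusted p = 0.234).

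**Figure D5:**
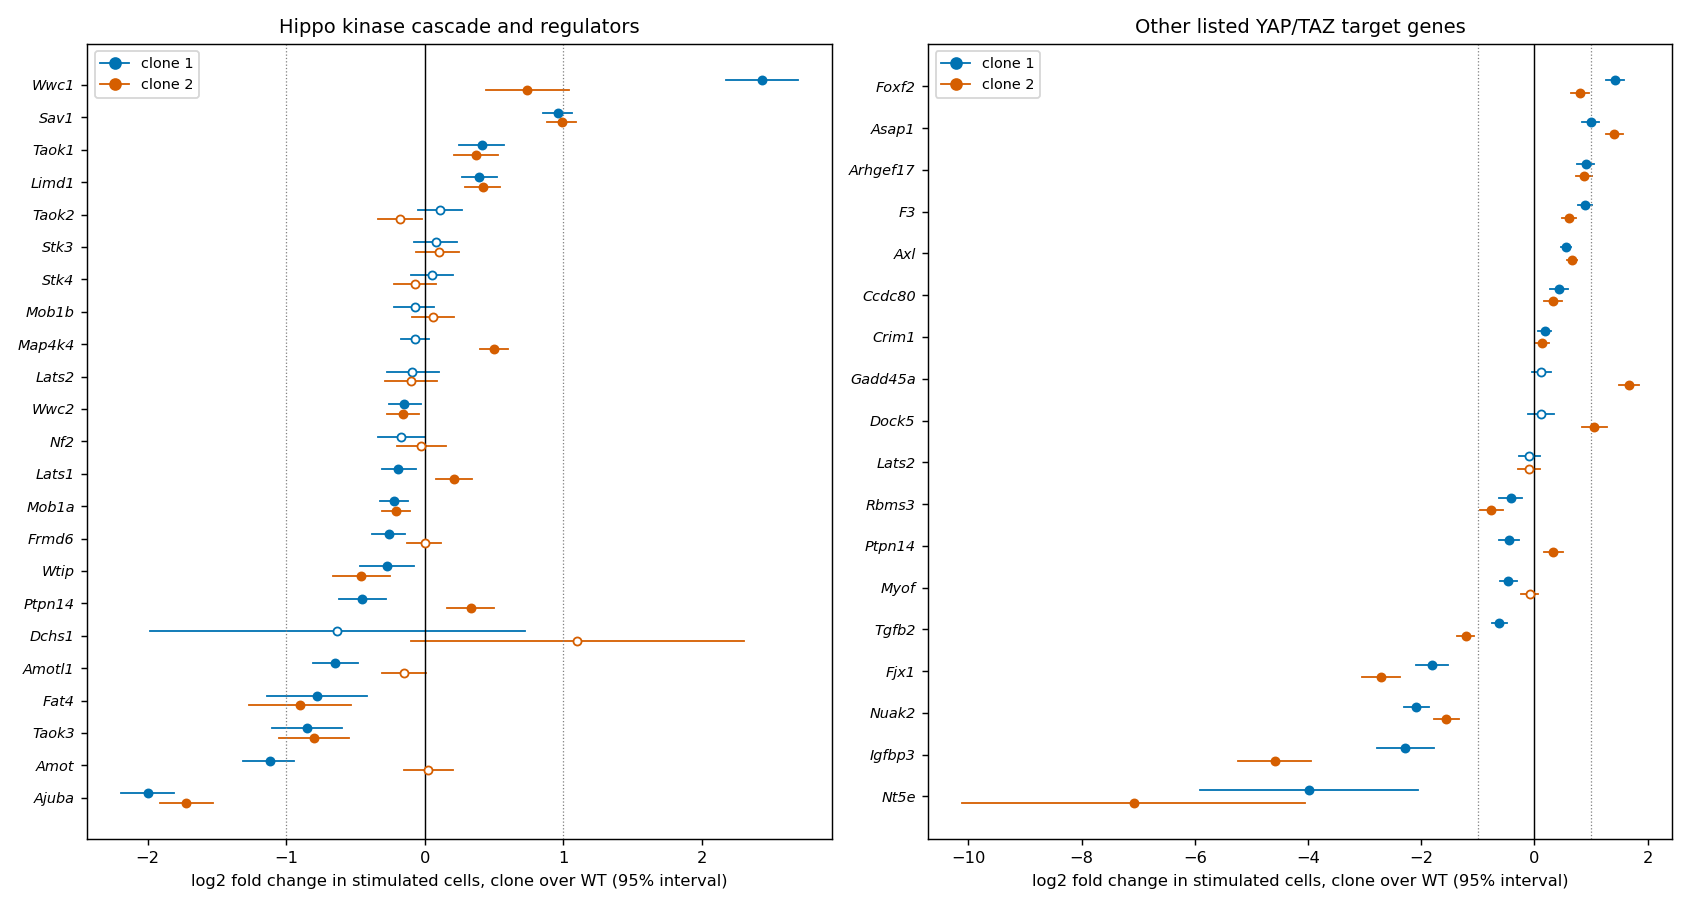
Log2 fold change of stimulated clone 1 (blue) and clone 2 (orange) over stimulated WT cells with its 95% interval (x axis), for 23 Hippo genes (left) and 18 other YAP/TAZ target genes (right), ordered by the value in clone 1. Filled points have an adjusted p below 0.05. *Ajuba*, *Nuak2*, *Fjx1* and *Igfbp3* lie below -1 in both clones, and the wide intervals of *Nt5e* and *Dchs1* belong to genes with few counts.

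Genes that TGF-β switches on through SMADs, and genes of the actin-responsive factor SRF, were examined beside these, since *Ctgf* is also a SMAD target. Of 6 SMAD targets, 5 rose in each genotype as DEGs. Of all tested genes, 6.25% were higher DEGs in the WT response, and 852 and 925 of the 14317 genes were higher DEGs in the responses of clone 1 and clone 2. In either direction the shares were 19.9%, 16.7% and 17.7%. The sixth, *Tgfbi*, had 246 ± 12.5 and 250 ± 18.6 CPM in WT, 7.83 ± 0.406 and 0.425 ± 0.0861 CPM in clone 2, and 3 and 6 summed counts in clone 1. *Pmepa1*, a feedback inhibitor of SMAD signaling, had a log2 response of 5.53 in WT, 5.37 in clone 1 and 5.74 in clone 2. Stimulated, it had 1685 ± 84.2 CPM in WT, 906 ± 36.6 in clone 1 and 897 ± 40.2 in clone 2. Uninduced, the median log2 fold change of the 6 over WT was -0.67 in clone 1 and -0.94 in clone 2. Over all tested genes it was -0.01 and -0.02. Lower DEGs numbered 1 and 3 of the 6, where 15.1% of all tested genes were DEGs in either direction. After stimulation all 6 were lower than WT in clone 1, against 30.5% of all tested genes. In clone 2, 3 were lower, against 28.3%, and 1 higher. *Tgfbi* is among the 6 and passed the count filter only through WT and uninduced clone 2 libraries. In clone 1 and in stimulated clone 2 it could hardly be called other than lower than WT. The difference in response from WT passed the p threshold for 1 of the 6 in clone 1, against 31.6% of all tested genes, and for 5 in clone 2, against 31.2%. It was positive for the 1 in clone 1, and positive for 4 and negative for 1 in clone 2. Of 6 tested SRF targets, all were lower than WT in stimulated clone 1 and 5 in stimulated clone 2, against 30.5% and 28.3% of all tested genes, with 4 and 3 DEGs, against 9.6% and 8.94%. Before stimulation 1 was already a lower DEG in clone 1 and 2 in clone 2, where 15.1% of all tested genes were DEGs in either direction. The uninduced median log2 fold change of the 6 over WT was -0.26 in clone 1 and -0.58 in clone 2. That of all tested genes was -0.01 and -0.02. Of the 6, *Tagln* had only 146 counts over the 18 libraries, with its highest group mean, 0.804 CPM, in stimulated WT. A gene that passes the count filter mainly through WT could hardly be called other than lower in the clones. *Acta2*, α-smooth muscle actin, rose in WT from 274 ± 19.3 to 2036 ± 84.4 CPM, fell from 419 ± 6.63 to 308 ± 7.3 CPM in clone 1 and rose from 193 ± 6.93 to 323 ± 23 CPM in clone 2. Its response differed from that of WT by -3.34 (adjusted p = 3.78e-24) in clone 1 and -2.15 (adjusted p = 1e-19) in clone 2 on the log2 scale. The summed adipocyte markers, which were highest in stimulated clone 1, differed between the genotypes as well, and their part in any of these differences was not tested.

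Across the 18 libraries, the genes of at least 5 CPM whose log2 CPM was most like that of a member by Pearson's r, out of 10058 candidates, were *Col3a1* (0.994), *Ctps* (0.99) and *Cpt1a* (0.988) for *Ctgf*. For *Cyr61* they were *Ier5l* (0.976), *Thbs1* (0.975) and *Bmper* (0.96), for *Tead4* *Rin2* (0.989), *Abhd5* (0.984) and *Ormdl3* (0.981), and for *Wwtr1* *Ptprk* (0.993), *Pkm* (0.99) and *Adarb1* (0.99). The libraries fall into 6 groups, so these values mainly compare group means, and they are descriptions without a test.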

How the data were processed

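Poly(A) RNA of 18 libraries was sequenced for the authors by Novogene. Reads were mapped to mm10 (GRCm38) with HISAT2, and raw counts per gene were deposited without normalization. The sources used here do not give the counting program, annotation release or strand setting, so antisense overlaps cannot be separated. Columns were matched to samples by the library names in the labels. The tests used edgeR 4.0.16 under R 4.3.3 (filterByExpr by group, minimum count 10, TMM, glmQLFit with robust estimation, 1 mean for each of 6 groups, glmQLFTest), with limma 3.58.1 and DESeq2 1.42.0 for alternatives. Figures were drawn with Python 3.11.15 and matplotlib 3.10.9. Of 54532 genes, 25899 had a count and 14317 were tested. The 11 comparisons were stimulated with uninduced cells in each genotype, each clone with WT in each state, clone 1 with clone 2, and the difference in response. Thresholds were the study's. CPM per kb used the table's gene lengths. The procedure was tested on simulated data. Low-count ratios carry 95% exact binomial intervals. Totals of 15576685 to 42005596 counts set the precision. Replicates differed beyond counting error (chi-square per degree of freedom 3.13 to 14.7) and correlated at r of 0.963 to 0.993.

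The 10 genes, *Foxs1*, the listed genes (at most 6 of a list per comparison, largest changes past the thresholds first) and the 3 genes most like each member were named by rule. Values of 1 listed gene are not reported here. The members and lists were chosen with earlier results of these data known. Coordinates are the table's and match GENCODE M21 for 9 of the 10 members, the exception being *Ankrd1*. Promoters are RefSeq's (GRCm38.p6). Likeness to a member was measured with Pearson's r, or Spearman's rho as an alternative. Alternatives were DESeq2's Wald test, DESeq2 size factors, no filter, 1 CPM in 3 libraries, only the groups compared, a replicate block and each library left out.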

Additional observations from a re-analysis of the deposited data

Results flagged for a closer look

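The response to TGF-β1 + DMII differed between clone and WT, by edgeR's test of the difference itself with Benjamini-Hochberg adjustment over all tested genes, for 8 members in clone 1 and 6 in clone 2. In clone 1 the log2 differences in response were 2.79 for *Tead4*, 0.60 for *Tead1*, 0.43 for *Tead3*, 0.37 for *Wwtr1*, -0.45 for *Tead2*, -0.84 for *Ctgf*, -0.90 for *Amotl2* and -1.62 for *Cyr61*. In clone 2 they were 2.08 for *Tead4*, 0.89 for *Ctgf*, 0.43 for *Wwtr1*, 0.38 for *Tead1*, -0.87 for *Amotl2* and -0.88 for *Tead2*. Adjusted p was above 0.05 when 1 library was left out in 7 of 12 cases for *Tead3* in clone 1, in 2 of 12 for *Tead2* in clone 1 and in 3 of 12 for *Tead1* in clone 2. For *Ctgf* the sign of the difference was opposite in the clones, whose responses are compared with the same WT libraries. Groups of 3 libraries were too small to test for single libraries far from the others.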

How the results depend on the processing

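Of the log2 fold changes of members under other normalizations, filters, tests and samples, 636 kept their direction and side of the threshold, 4 gained a call, 6 lost one (*Yap1* in uninduced clone 2 against WT, *Ctgf* between the uninduced clones and *Ankrd1* between the stimulated ones with no filter, *Tead2* in uninduced clone 1 against WT and the clone 1 difference of *Tead3* with only the groups compared, and *Tead3* in the clone 1 response with DESeq2), and 11 changed sign, all in values near 0. *Amotl2* in the clone 1 response was 0.01 with DESeq2 size factors, 0.00 with DESeq2's Wald test and 0.01 with no filter. *Tead1* in clone 2 against WT stimulated was 0.00, 0.00 and -0.02 under the same settings. With no filter, *Amotl2* was 0.00 and -0.01 between the clones stimulated and uninduced and 0.02 in each uninduced clone against WT, and *Wwtr1* was 0.01 in uninduced clone 1. The DEGs between the stimulated clones numbered 1 instead of 2 with no filter (*Ankrd1*, adjusted p = 0.0609) and with only the groups compared, where *Ankrd1* was filtered out.

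With 1 library left out, 711 results kept direction and call, 5 gained a call, 37 lost one, and 27 changed sign. DEG counts ran from 1 to 2 for the clone 2 difference in response and between the stimulated clones, from 2 to 4 for clone 2 and 3 to 4 for clone 1 against WT stimulated, from 2 to 3 for uninduced clone 2 against WT and for the clone 1 difference in response, and from 4 to 5 for the clone 1 response. Counts at the p threshold alone ran from 3 to 4 (5 with all libraries) between the uninduced clones and from 3 to 5 between the stimulated ones. They ran from 6 to 8 for the clone 1 and 5 to 6 for the clone 2 difference in response. The WT response had 6 to 7 and that of clone 1 had 7 to 9. Against WT, stimulated clone 1 had 8 to 10 and clone 2 had 7 to 8, and uninduced they had 5 to 6 and 8 to 9. The sign changed within these ranges: *Ankrd1* -0.79 to 0.01 in the WT response and -0.41 to 0.11 in uninduced clone 1 against WT; *Wwtr1* -0.07 to 0.06 and *Amotl2* -0.07 to 0.04 in the latter; *Amotl2* -0.04 to 0.03 in uninduced clone 2 against WT, -0.05 to 0.08 and -0.03 to 0.12 in the clone 1 and clone 2 responses, and -0.05 to 0.05 and -0.09 to 0.05 between the clones uninduced and stimulated. *Tead3* ran from -0.11 to 0.03 and from 0.00 to 0.19 there, *Cyr61* from -0.06 to 0.10 between the stimulated clones, *Tead1* from -0.03 to 0.06 in stimulated clone 2 against WT, and *Yap1* from -0.05 to 0.02 in the clone 1 difference in response. The cause of these shifts was not tested.

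Same-numbered libraries did not deviate together (0 of 45 pairs had r over 0.1, median 0.00159), so the numbers were not taken as pairs, and with the replicate block 110 of 110 member results kept direction and call and 22 of 22 counts were equal, 6 genes in the WT response included. Spearman's rho ranked mostly other genes as most like the members. Without division by length, *Cyr61* ranked first in stimulated WT and uninduced clone 1 alone, *Tead1* in uninduced WT and *Wwtr1* in the other 3 groups. The ratio of *Wwtr1* to *Yap1* and the share of *Tead4* among TEADs also depend on this division. In CPM, *Wwtr1* and *Yap1* had 137 and 137 in uninduced WT and 359 and 165 in stimulated WT. They had 462 and 134 in stimulated clone 1 and 518 and 144 in stimulated clone 2. Low counts limit *Ankrd1*, *Nt5e* and *Tagln*.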
